A study of Homo sapiens with 12 samples.

Results

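The cGAS-STING axis and its DNA nucleases were followed through 8 genes in HT1080 cells, an established human fibrosarcoma line that carries a mutant NRAS gene. The genes were CGAS and IFI16, which sense DNA, STING1, the adaptor, TBK1 and IKBKE, the kinases, IRF3, the transcription factor they phosphorylate, and TREX1 and SAMHD1, the enzymes that limit DNA and its precursors. They were taken by symbol, and all 8 were found and passed the filter, out of 14722 genes tested and 56227 entries in the table. RNA-seq was measured in 12 libraries, 3 in each of 4 groups: siQ61K with poly(dA:dT), siNC with poly(dA:dT), siQ61K with DMSO and siNC with DMSO. All groups were the same line and differed in the siRNA, siQ61K against mutant NRAS or the control siNC, and in the added agent, poly(dA:dT) or DMSO. Poly(dA:dT) is a synthetic double-stranded DNA; the labels do not name how it was delivered, nor a time or a dose. The study asked about the interferon-alpha response when mutant NRAS is knocked down.

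Cyclic GMP-AMP synthase (cGAS) binds double-stranded DNA in the cytosol and makes the second messenger cGAMP, which binds STING on the endoplasmic reticulum. STING then moves to the Golgi and recruits TBK1 and IKK-epsilon, and phosphorylated IRF3 enters the nucleus to switch on interferon and antiviral genes. TREX1 degrades cytosolic DNA and SAMHD1 hydrolyses deoxynucleotides, and inherited loss of either causes an interferon-driven disease in people. Poly(dA:dT) can also reach the RNA sensor RIG-I, because RNA polymerase III transcribes it. Much of the axis is switched by cGAMP, phosphorylation and movement of proteins, none of which is measured by RNA.

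The targeted gene and the cell type were checked against the labels. NRAS stood between 15.2 and 23.5 TPM in the 6 siQ61K libraries and between 41.4 and 60.6 TPM in the 6 siNC libraries, and TPM does not separate its mutant from its normal allele. A single siRNA targeted NRAS, and its other effects cannot be told apart from the loss of the gene. Of 6 mesenchymal markers, 5 were present, among them VIM at 4728 to 7742 TPM, while THY1 did not exceed 0.126 TPM. All 4 epithelial, both endothelial and all 6 leucocyte markers in the table stayed below 1 TPM in each of the 12 libraries. The column names HT-NC, HT-SI and PD were read as siNC, siQ61K and poly(dA:dT). Across genes, Pearson r between replicates was 0.9656 to 0.9839. The median-of-ratios size factor was highest in siQ61K DMSO replicate 3 (1.163) and lowest in siQ61K poly(dA:dT) replicate 2 (0.8924), and results were also computed without these libraries. On the first component of the residuals within groups, siQ61K poly(dA:dT) replicate 1 scored highest (34.9) and replicate 2 of that group lowest (-27.9). Log2 differences followed GC content over 14671 genes, with Spearman rho of 0.501 for the knockdown without poly(dA:dT), -0.243 for the knockdown with it, 0.499 and -0.568 for poly(dA:dT) under siNC and siQ61K, and -0.651 for the interaction. The longest transcripts of the 8 genes ran from 38.6% GC in IFI16 to 63.1% in TREX1, so values after a correction for GC content and length are given beside the deposited ones. TPM is a share of all RNA in a culture, and fewer cells expressing a gene cannot be told apart from less of its RNA per cell.

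Promoter sequences are shown for 3 of the genes whose RNA was highest in the siQ61K poly(dA:dT) libraries. They come from RefSeq on GRCh38.p14, read 5′ to 3′ on the gene's strand from 250 bases before to 50 bases after the transcript start, and a window was found for 5 of the 8 genes. The IFI16 window is the more downstream of 2 listed starts and is on the plus strand at chr1:159009657-159009956. TREX1 lies on the plus strand at chr3:48465580-48465879 and SAMHD1 on the minus strand at chr20:36951659-36951958. Capitals mark GAAACGAAA in IFI16, a pair of GAAA half-sites 1 base apart, and TGAGTCA in TREX1, a match to the AP-1 motif TGANTCA.
IFI16: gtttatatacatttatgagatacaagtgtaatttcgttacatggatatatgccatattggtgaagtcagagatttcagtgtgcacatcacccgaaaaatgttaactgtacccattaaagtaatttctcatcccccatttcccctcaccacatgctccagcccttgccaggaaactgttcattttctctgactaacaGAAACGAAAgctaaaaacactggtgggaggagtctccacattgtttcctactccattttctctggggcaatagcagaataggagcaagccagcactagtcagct
TREX1: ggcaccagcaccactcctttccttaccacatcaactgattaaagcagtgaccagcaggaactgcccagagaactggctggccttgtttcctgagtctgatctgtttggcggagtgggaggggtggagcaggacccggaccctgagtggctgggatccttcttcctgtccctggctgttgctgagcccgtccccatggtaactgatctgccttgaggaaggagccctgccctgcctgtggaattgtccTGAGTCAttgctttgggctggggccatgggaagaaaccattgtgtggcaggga
SAMHD1: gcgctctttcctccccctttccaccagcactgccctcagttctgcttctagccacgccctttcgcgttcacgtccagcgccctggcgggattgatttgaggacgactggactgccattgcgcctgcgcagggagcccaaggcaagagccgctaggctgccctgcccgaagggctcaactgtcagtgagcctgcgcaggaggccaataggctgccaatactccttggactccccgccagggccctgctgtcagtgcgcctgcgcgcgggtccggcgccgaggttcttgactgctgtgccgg

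The interferon-stimulated response element core, GAAA followed by any 2 bases and GAAA again, bound by IRF and STAT complexes, was searched on both strands and occurred in none of the 5 genes' windows, against 3.57% of 35116 promoter windows. The GAS core TTCNNNGAA, bound by STAT dimers, and the cAMP response element TGACGTCA were likewise absent from them and occurred in 7.66% and 1.85% of all windows. The AP-1 motif was found only in the TREX1 window, beginning 3 bases before the transcript start, and in 7.71% of all windows. The IFI16 match began 54 bases before the start, and its motif GAAANGAAA, chosen after the sequence was seen, occurred in 3.12% of all windows. The window of the other listed IFI16 start, not printed, held no match to it. A match describes letters in a window and does not show binding.

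The 8 genes differed widely in level, and TPM is scaled for transcript length. IFI16 was the highest and CGAS the lowest in every group. IFI16 ranged from 94.1 to 282.4 TPM over the 12 libraries and CGAS from 0.935 to 2.6 TPM, which put CGAS between the 7.6th and 22.7th percentile of the tested genes. In the siQ61K poly(dA:dT) group the order by mean was IFI16, IRF3, TREX1, SAMHD1, STING1, TBK1, IKBKE and CGAS. There IRF3 overlapped TREX1, TREX1 overlapped SAMHD1 and STING1 overlapped TBK1. In the siNC poly(dA:dT) group STING1 and IRF3 followed IFI16 and overlapped each other, TBK1, TREX1, IKBKE and SAMHD1 came next with each overlapping its neighbour, and CGAS was apart. In the siQ61K DMSO group the order was IFI16, IRF3, STING1, TBK1, IKBKE, SAMHD1, TREX1 and CGAS, with overlap among IKBKE, SAMHD1 and TREX1. In the siNC DMSO group it was IFI16, STING1, IRF3, TBK1, TREX1, IKBKE, SAMHD1 and CGAS, with overlap between TBK1 and TREX1 and between IKBKE and SAMHD1.

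**Figure D1:**
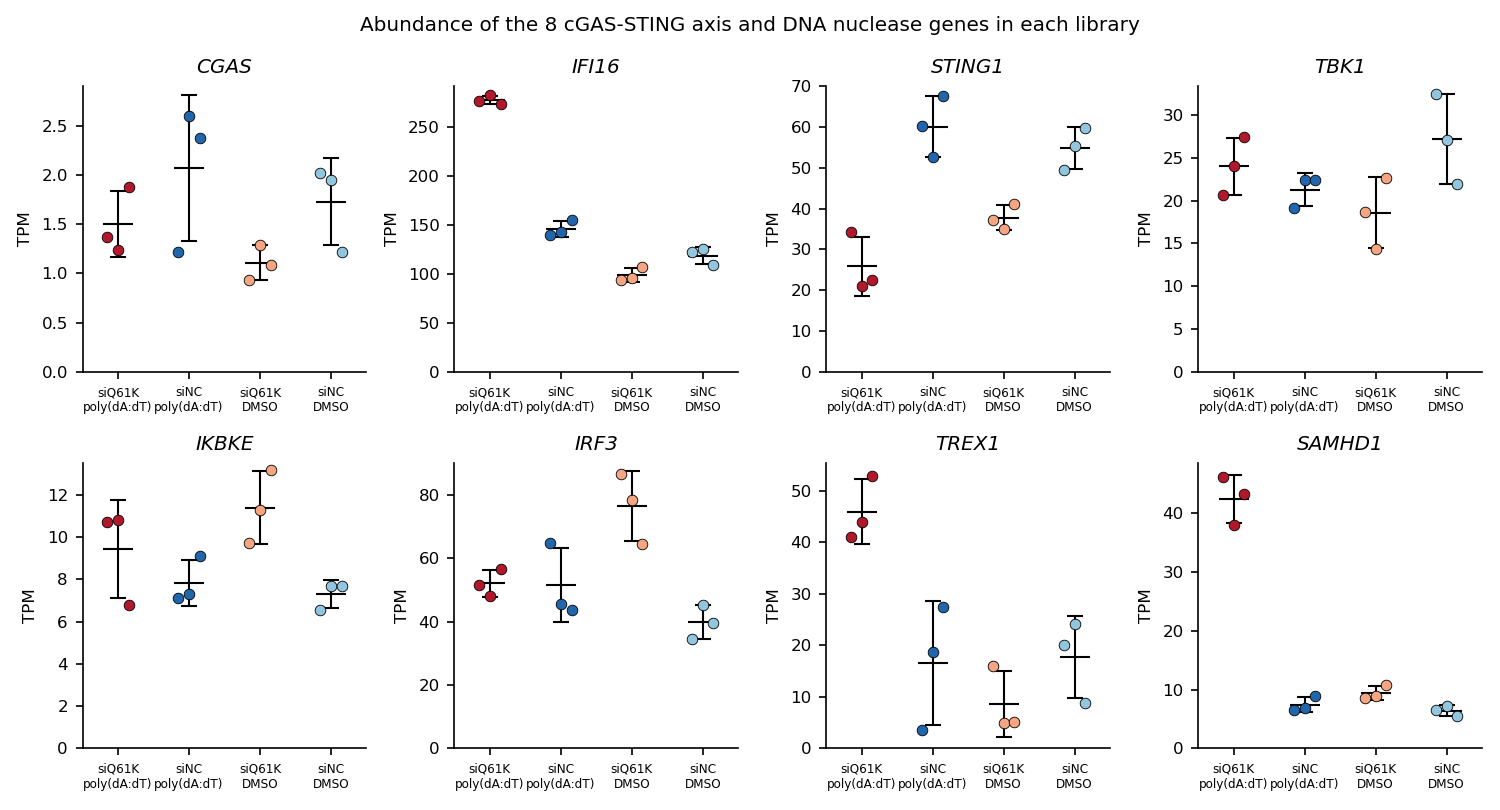
TPM of the 8 genes in each library (points), with the group mean and SD (n = 3 libraries), for siQ61K and siNC with poly(dA:dT) and with DMSO. SAMHD1 and IFI16 stood apart in the siQ61K poly(dA:dT) group, at 37.9 to 46.1 TPM and 273.7 to 282.4 TPM, while TREX1 varied from 3.61 to 27.4 TPM among the siNC poly(dA:dT) libraries.

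The knockdown was compared first with poly(dA:dT) present, where IFI16, TREX1 and SAMHD1 rose and STING1 fell. These were 4 of the 8 genes, 3 higher and 1 lower, against 21.4% of all tested genes called in either direction (8.71% higher and 12.6% lower). Calls are those of limma at a Benjamini-Hochberg adjusted p under 0.05 over all tested genes. The median log2 difference was 0.19 over the 8 genes and -0.07 over all tested genes. After the GC and length correction the count was again 4, with 3 higher, against 26.9% of all genes (13.7% higher, 13.2% lower). The TREX1 call was lost with no filter (adjusted p = 0.158), only the groups compared (0.0767), sample weights (0.0725) or a replicate block (0.0686). It was also lost with no variance trend (0.072), a robust trend (0.0656) or a pseudocount of 0.1 (0.0548). Without the pair of libraries with extreme size factors its adjusted p was 0.113. The call held with median-of-ratios scaling (0.0414), quantile normalization (0.0425) and a pseudocount of 5 (0.0323). Values of siQ61K and siNC did not overlap for 4 of the 8, against 36.7% of all genes.

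Without poly(dA:dT), SAMHD1, IKBKE and IRF3 rose by knockdown and STING1, IFI16 and TBK1 fell. That made 6 of 8 called, 3 in each direction, against 31.5% of all genes (16.6% higher, 14.8% lower), and the median was -0.31 against 0.01 over all genes. The groups did not overlap for 5 of the 8, against 45.8% of all genes. Only 3 of the 6 calls, SAMHD1, IRF3 and STING1, remained after the GC and length correction, where 27.5% of all genes were called (13.1% higher, 14.4% lower). The count also fell to 3 with a fit to only these groups and to 2 with no filter. Those settings called 4474 of 14722 and 3701 of 29639 genes. The count was 2 without siQ61K DMSO replicate 1, 1 without siQ61K DMSO replicate 2 and 2 without siNC DMSO replicate 1 or 2. It was 3 without siNC DMSO replicate 3 and 4 without the pair of libraries with extreme size factors. Over all 14722 genes, 3040 to 4983 were called with 1 library left out and 4471 without the pair.

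Poly(dA:dT) under siNC changed none of the 8 genes by the limma test, where 0.122% of all genes were called (0.0747% higher, 0.0475% lower). IFI16 alone of the 8 had an unadjusted limma p under 0.05. That makes 1 of 8, near the share of all genes, 1640 of 14722. IFI16 passed the adjusted test once GC content and length were corrected for (1 higher call). That setting called 0.204% of all genes (0.13% higher, 0.075% lower). The median was 0.14 against -0.07 over all genes. IFI16 was also the only one whose groups did not overlap, against 17.9% of all genes.

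Under siQ61K, poly(dA:dT) went with higher IFI16, TREX1 and SAMHD1 and lower STING1 and IRF3, so 5 of 8 were called against 25.2% of all genes (6.92% higher, 18.3% lower). The groups did not overlap for the same 5, against 39.3% of all genes. With the correction the 3 higher calls remained and the 2 lower ones did not, where 8.67% of all genes were called (5.37% higher, 3.3% lower). The median of all genes was -0.145 here and -0.008 with median-of-ratios scaling, and the higher share of all calls was 27.45% as deposited and 52.57% with that scaling. On that scale STING1 and IRF3 were no longer called and TBK1 was (0.53, adjusted p = 0.0361). The count was 3 without siQ61K poly(dA:dT) replicate 2 or 3 or siQ61K DMSO replicate 1. It was 2, SAMHD1 and IFI16, without the pair of libraries with extreme size factors. Over all 14722 genes, 1633 to 4622 were called with 1 library left out and 144 without the pair.

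The interaction is the poly(dA:dT) difference under siQ61K minus that under siNC, and it tests whether the agent's effect depended on the siRNA. It was called above 0 for IFI16, TREX1 and SAMHD1 and below 0 for IRF3, 4 of 8, against 18.1% of all genes (6.0% above 0 and 12.1% below). After the correction IFI16 and SAMHD1 remained, with 2.06% of all genes called (1.39% above 0, 0.668% below). The count was 2 without siQ61K poly(dA:dT) replicate 2, siNC poly(dA:dT) replicate 1 or siNC DMSO replicate 1. It was 6 without siQ61K poly(dA:dT) replicate 1. Over all 14722 genes, 2662 were called with all libraries and 976 to 3877 with 1 library left out. Median-of-ratios scaling gave 5 of the 8, with TBK1 added, and 2851 of all genes.

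**Figure D2:**
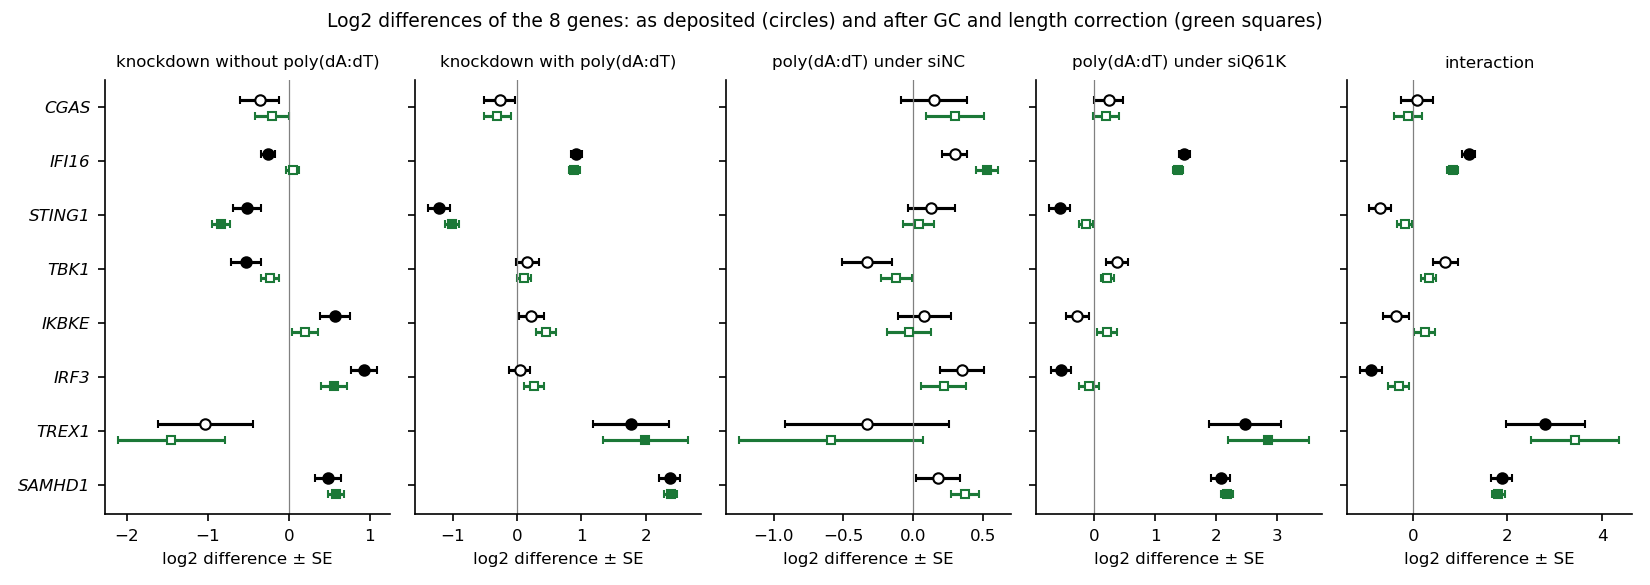
Log2 differences of the 8 genes in the 5 comparisons with their SE, as deposited (black circles) and after correction for GC content and transcript length (green squares), where filled symbols have an adjusted p under 0.05. SAMHD1 was called at 2.37 and 2.39 in the knockdown with poly(dA:dT), whereas IRF3 moved from a called -0.54 to -0.08 in the poly(dA:dT) comparison under siQ61K.

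CGAS, the sensor that makes cGAMP, had little RNA in any group. It stood at 1.37, 1.24 and 1.88 TPM with siQ61K and poly(dA:dT) and at 1.22, 2.6 and 2.38 TPM with siNC and poly(dA:dT). With DMSO the values were 0.935, 1.29 and 1.09 TPM under siQ61K and 2.02, 1.95 and 1.22 TPM under siNC. All pairs of groups compared overlapped. No comparison called it: the log2 difference of siQ61K and siNC was -0.27 with poly(dA:dT) (95% interval -0.80 to 0.25, adjusted p = 0.452) and -0.36 with DMSO (-0.89 to 0.16, adjusted p = 0.274). These intervals leave room for a moderate fall or a small rise, and the fold change of so low a gene is understated on the log2(TPM + 1) scale. Poly(dA:dT) differences were 0.24 under siQ61K (-0.28 to 0.76) and 0.15 under siNC (-0.37 to 0.67). CGAS overlaps DDX43 on the opposite strand in GENCODE 29, and the strand setting of the quantification is not given in the sources used here.

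IFI16, a PYHIN-family protein that binds DNA in the nucleus and the cytosol and can act with STING, responded to poly(dA:dT) chiefly under siQ61K. It stood at 276.6, 282.4 and 273.7 TPM with siQ61K and poly(dA:dT), against 140.0, 142.8 and 155.2 TPM with siNC and poly(dA:dT). With DMSO it stood at 94.1, 95.7 and 106.9 TPM under siQ61K and 121.9, 125.4 and 108.9 TPM under siNC. The siQ61K poly(dA:dT) libraries were the highest of all and varied by an SD of 4.41 TPM. Their mean was 1.9 times that of siNC with poly(dA:dT), a log2 difference of 0.92 (SE 0.09, adjusted p = 2.07e-05), and 2.81 times that of siQ61K with DMSO, a log2 difference of 1.48 (SE 0.09, adjusted p = 7.18e-07). Under siNC poly(dA:dT) differed from DMSO by 0.30 (SE 0.09, adjusted p = 0.314) with no overlap, and by 0.53 after the correction (adjusted p = 0.0172).

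The interaction for IFI16 was 1.18 (SE 0.13, adjusted p = 0.000733) and 0.84 after the correction (adjusted p = 0.00292). The interaction as deposited and both called differences above were called with each of the 12 libraries left out in turn. With DMSO the knockdown difference was -0.26 (SE 0.09, adjusted p = 0.0472). It was 0.05 after the correction (adjusted p = 0.653), so its direction depended on the correction. That call was lost with 9 of the 12 libraries left out in turn, at -0.26 to -0.22 and an adjusted p of 0.054 to 0.163. They were siQ61K poly(dA:dT) replicates 2 and 3, all siNC poly(dA:dT) replicates, siQ61K DMSO replicates 1 and 2, and siNC DMSO replicates 1 and 2.

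STING1, the adaptor that receives cGAMP, was lower under siQ61K with either agent. The values were 34.2, 21.0 and 22.5 TPM with siQ61K and poly(dA:dT), against 60.3, 52.6 and 67.6 TPM with siNC and poly(dA:dT). With DMSO they were 37.3, 35.1 and 41.1 TPM under siQ61K, against 49.4, 55.3 and 59.8 TPM under siNC. Every siQ61K library lay below every siNC library, and replicate 1 was the highest of the siQ61K poly(dA:dT) libraries. The mean of siQ61K was 0.43 times that of siNC with poly(dA:dT), a log2 difference of -1.21 (SE 0.17), and this call held with each library left out. With DMSO the ratio was 0.69 and the log2 difference -0.52. The correction gave -1.01 with poly(dA:dT) (adjusted p = 6.57e-05) and -0.84 with DMSO (adjusted p = 0.000276), so both differences remained below 0.

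Whether STING1 also changed with poly(dA:dT) depended on the processing. Under siQ61K it fell by 0.56 on the log2 scale (SE 0.17, adjusted p = 0.0281). Under siNC the difference was 0.13, above 0 (SE 0.17, adjusted p = 0.761). The value under siQ61K was -0.13 after the correction (adjusted p = 0.502) and -0.40 with median-of-ratios scaling (adjusted p = 0.0666). The call was lost without siQ61K poly(dA:dT) replicate 2 or 3 or siQ61K DMSO replicate 1 or 3, at -0.57 to -0.43 (adjusted p 0.0669 to 0.118). The interaction was -0.69 (SE 0.24, adjusted p = 0.0599) and was not called. It was -0.90 (adjusted p = 0.00392) without siQ61K poly(dA:dT) replicate 1. The DMSO knockdown call was lost without siQ61K DMSO replicate 1 or 2 or siNC DMSO replicate 2 or 3, at -0.51 to -0.46 (adjusted p 0.0794 to 0.092). STING1 overlaps no other protein-coding gene in GENCODE 29.

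TBK1, the main kinase that STING recruits, was called lower by knockdown with DMSO and was called in no other comparison as deposited. It stood at 20.7, 24.0 and 27.4 TPM with siQ61K and poly(dA:dT) and at 19.1, 22.4 and 22.4 TPM with siNC and poly(dA:dT). With DMSO it stood at 18.7, 14.4 and 22.7 TPM under siQ61K and at 32.5, 27.1 and 21.9 TPM under siNC. Every pair of groups overlapped. With DMSO TBK1 was called lower in siQ61K by limma, with a log2 difference of -0.53 (SE 0.18, adjusted p = 0.0408), and the correction gave -0.23 (adjusted p = 0.163). That call was lost with 6 libraries left out in turn, siNC poly(dA:dT) replicates 2 and 3, siQ61K DMSO replicates 1 and 2 and siNC DMSO replicates 1 and 2, at -0.54 to -0.37 (adjusted p 0.0504 to 0.17). With poly(dA:dT) the siRNAs differed by 0.16 (95% interval -0.23 to 0.55). The interaction was 0.69 (SE 0.26, adjusted p = 0.078), and it was called without siQ61K poly(dA:dT) replicate 1, siQ61K DMSO replicate 3 or siNC DMSO replicate 3, at 0.79 to 0.84 (adjusted p 0.0375 to 0.0462).

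IKBKE, which encodes IKK-epsilon, the relative of TBK1 that is itself inducible in many cells, was the lower of the kinases in every group. It had 10.7, 10.8 and 6.78 TPM with siQ61K and poly(dA:dT), against 7.1, 7.29 and 9.1 TPM with siNC and poly(dA:dT). With DMSO it had 9.74, 11.3 and 13.2 TPM under siQ61K, against 6.55, 7.7 and 7.7 TPM under siNC. The DMSO groups did not overlap, while the poly(dA:dT) groups did. The DMSO difference of 0.57 on the log2 scale (SE 0.19, adjusted p = 0.0349) was 0.20 after the correction (adjusted p = 0.396). It was lost without siQ61K DMSO replicate 2 or 3 or any siNC DMSO replicate, at 0.47 to 0.61 (adjusted p 0.0533 to 0.12). The differences between poly(dA:dT) and DMSO were -0.27 under siQ61K and 0.08 under siNC, neither called, and both changed sign with the correction, to 0.21 and -0.03.

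IRF3, the transcription factor at the end of the axis, rose in siQ61K cells that received DMSO. It stood at 51.5, 48.1 and 56.5 TPM with siQ61K and poly(dA:dT) and at 64.9, 45.6 and 43.7 TPM with siNC and poly(dA:dT), which overlapped. With DMSO it stood at 86.4, 78.3 and 64.5 TPM under siQ61K, above all siNC values of 34.4, 45.1 and 39.5 TPM. The DMSO ratio of means was 1.92, a log2 difference of 0.93 (SE 0.16, adjusted p = 0.00118) that was called with each library left out and was 0.56 after the correction (adjusted p = 0.0203). With poly(dA:dT) the knockdown difference was 0.04 (95% interval -0.32 to 0.39, adjusted p = 0.904).

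Under siQ61K, IRF3 fell by 0.54 on the log2 scale with poly(dA:dT) (SE 0.16, adjusted p = 0.0297), and the interaction was -0.89 (SE 0.23, adjusted p = 0.0223). After the correction these were -0.08 (adjusted p = 0.792) and -0.30 (adjusted p = 0.488), so neither call held. Without siQ61K poly(dA:dT) replicate 2 or 3 or siQ61K DMSO replicate 1 or 2, the fall was not called, at -0.60 to -0.45 (adjusted p 0.0563 to 0.111). The interaction was not called without siQ61K poly(dA:dT) replicate 2, siNC poly(dA:dT) replicate 1, siQ61K DMSO replicate 1 or siNC DMSO replicate 1, at -0.84 to -0.71 (adjusted p 0.0508 to 0.0619). IRF3 overlaps BCL2L12 on the opposite strand. BCL2L12 had 38.8, 42.3 and 37.0 TPM in siQ61K and 81.5, 69.3 and 68.0 TPM in siNC libraries with poly(dA:dT), a difference of -0.87 (adjusted p = 0.000318) where that of IRF3 was 0.04. With DMSO it differed by -0.31 (adjusted p = 0.0735), and by -0.63 after the correction (adjusted p = 0.00118), opposite in sign to IRF3. Its poly(dA:dT) difference under siNC was 0.35, as for IRF3, and its interaction of -0.57 (adjusted p = 0.0398) had the sign of that of IRF3 and was -0.05 after the correction (adjusted p = 0.893).

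TREX1, the chief exonuclease for DNA in the cytosol, was high and even in the siQ61K poly(dA:dT) libraries and uneven elsewhere. It stood at 41.1, 43.9 and 53.0 TPM with siQ61K and poly(dA:dT), against 3.61, 18.7 and 27.4 TPM with siNC and poly(dA:dT). With DMSO it stood at 16, 4.88 and 5.03 TPM under siQ61K and at 20.1, 24.1 and 8.79 TPM under siNC. The siQ61K poly(dA:dT) libraries lay above all others, and the other groups overlapped each other. Poly(dA:dT) under siQ61K raised it by 2.47 on the log2 scale (SE 0.59, adjusted p = 0.0111), called with each library left out and after the correction (2.85, adjusted p = 0.0256). This rise was not called with no filter (adjusted p = 0.0509) or without the pair of libraries with extreme size factors (2.25, adjusted p = 0.109).

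The knockdown difference of TREX1 with poly(dA:dT) was 1.77 (SE 0.59, adjusted p = 0.0472), a ratio of means of 2.77. It was lost with 9 libraries left out in turn, at 0.98 to 2.03 (adjusted p 0.0525 to 0.165). They were all siQ61K poly(dA:dT) replicates, siNC poly(dA:dT) replicates 1 and 2, siQ61K DMSO replicates 2 and 3 and siNC DMSO replicates 1 and 2. The interaction of 2.80 (SE 0.83, adjusted p = 0.0357) was 3.43 after the correction (adjusted p = 0.077). It was lost without siQ61K poly(dA:dT) replicate 2 or 3, siNC poly(dA:dT) replicate 1, siQ61K DMSO replicate 2 or 3, or siNC DMSO replicate 1 or 2, at 2.02 to 2.83 (adjusted p 0.057 to 0.0863). With DMSO the knockdown difference was -1.03 (95% interval -2.30 to 0.23, adjusted p = 0.201), too wide to give a direction.

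TREX1 lies within ATRIP on the same strand, so reads of the 2 genes may have been shared out between them by the authors' quantification. ATRIP, which brings the ATR checkpoint kinase to damaged DNA, ranged only from 7.77 to 10.5 TPM over the libraries and was not called in any comparison as deposited. After the correction it was called at 0.49 for poly(dA:dT) under siQ61K (adjusted p = 0.026) and at -0.39 for the knockdown with DMSO (adjusted p = 0.0223). For TREX1 and ATRIP summed, the knockdown difference with poly(dA:dT) was 1.11 (adjusted p = 0.022) and the poly(dA:dT) difference under siQ61K was 1.58 (adjusted p = 0.00586). The interaction of the sum was 1.68 (adjusted p = 0.0229), and the DMSO knockdown difference was -0.57 (adjusted p = 0.185).

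SAMHD1, the deoxynucleotide hydrolase that also assists DNA end resection at stalled replication forks, had the largest log2 difference of the 8 in the knockdown with poly(dA:dT). It stood at 46.1, 37.9 and 43.3 TPM with siQ61K and poly(dA:dT), against 6.53, 6.88 and 8.93 TPM with siNC and poly(dA:dT). With DMSO it stood at 8.58, 8.87 and 10.7 TPM under siQ61K, against 6.51, 7.25 and 5.51 TPM under siNC. The siQ61K poly(dA:dT) libraries formed a group of their own, and siQ61K with DMSO lay above siNC with DMSO without overlap. The mean with siQ61K and poly(dA:dT) was 5.69 times that with siNC and poly(dA:dT), a log2 difference of 2.37 (SE 0.16, adjusted p = 7.09e-07), and 4.52 times that with siQ61K and DMSO, a log2 difference of 2.07 (SE 0.16, adjusted p = 5.78e-06). Under siNC, poly(dA:dT) differed from DMSO by 0.18 (95% interval -0.16 to 0.52, adjusted p = 0.647).

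The interaction for SAMHD1 was 1.88 (SE 0.22, adjusted p = 0.00134) and 1.81 after the correction (adjusted p = 8.28e-05). Both large differences and the interaction were called with each library left out, at 2.29 to 2.49, 2.00 to 2.15 and 1.80 to 2.00. The DMSO knockdown difference of 0.48 (SE 0.16, adjusted p = 0.0333) was 0.58 after the correction (adjusted p = 0.00138). It was lost without any siQ61K DMSO replicate or without siNC DMSO replicate 1 or 3, at 0.39 to 0.54 (adjusted p 0.0543 to 0.104). SAMHD1 overlaps TLDC2 on the opposite strand. For each pair of groups compared whose values did not overlap, the exact two-sided permutation test gave p = 0.1, the smallest that 3 against 3 libraries allow.

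**Figure D3:**
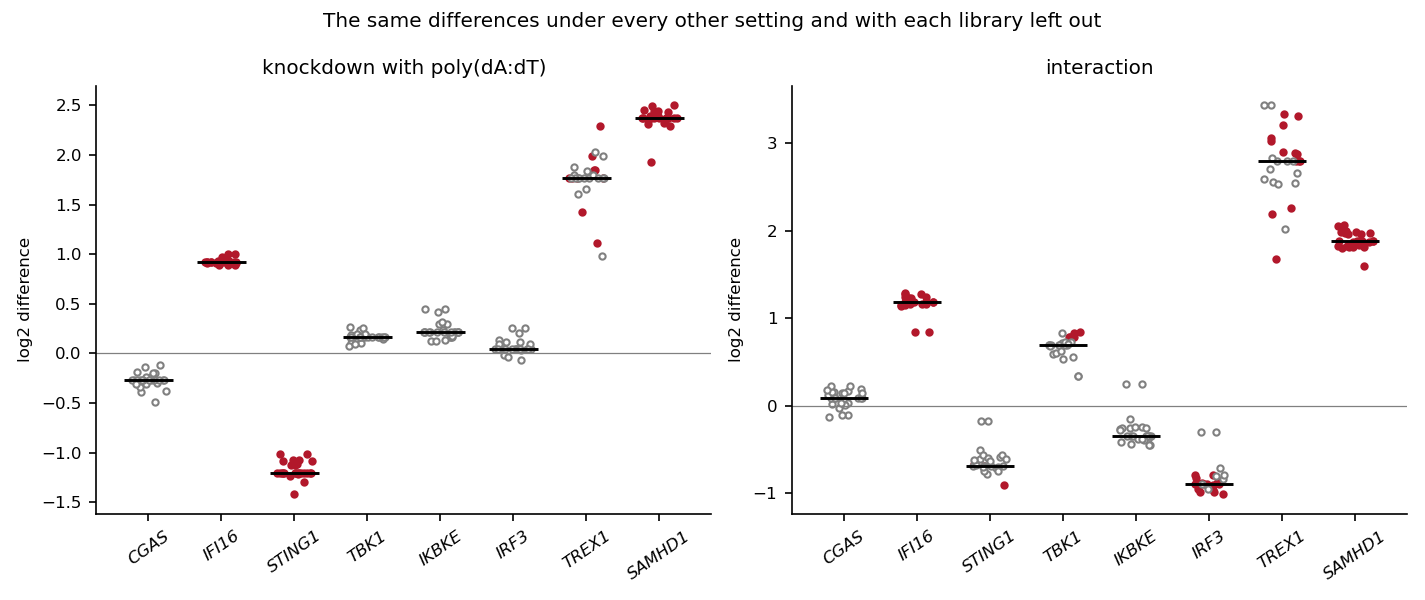
Log2 differences of the 8 genes in the knockdown with poly(dA:dT) and in the interaction, each point being 1 other setting or the fit without 1 library, and the line the value as reported; filled points have an adjusted p under 0.05. SAMHD1, IFI16 and STING1 kept their calls with each library left out in the knockdown with poly(dA:dT), while TREX1 ranged from 0.98 to 2.29.

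Around the 8 genes, 6 lists of related genes were counted. The DNA sensor and PYHIN list, in which CGAS and IFI16 are included, had 14 of 18 genes tested. Without poly(dA:dT), 9 fell by knockdown, with a median of -0.38, and 5 fell after the GC and length correction, beside 14.8% and 14.4% of all genes. AIM2, a PYHIN inflammasome sensor of DNA, stood at 5.39, 5.12 and 3.61 TPM in siQ61K and 12, 13 and 12.5 TPM in siNC libraries, a log2 difference of -1.26 (SE 0.17, adjusted p = 0.000194). HMGB1, a chromatin protein that aids nucleic acid sensing and has many processed pseudogenes, differed by -0.70 and LRRFIP1 by -0.66. The HMGB1 value was -0.39 after the correction (adjusted p = 0.108) and that of LRRFIP1 -0.56 (adjusted p = 0.000593).

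With poly(dA:dT), 5 of the 14 sensors fell and IFI16 alone rose by knockdown, with a median of -0.30, beside 12.6% of all genes lower and 8.71% higher. Among those that fell were HMGB1 (-0.77), LRRFIP1 (-0.66) and HNRNPA2B1 (-0.46), a nuclear RNA-binding protein reported to sense viral DNA, all of them called after the correction too. Poly(dA:dT) under siQ61K raised AIM2 by 1.28 (SE 0.17, adjusted p = 0.000806), with 12.7, 12.8 and 12.6 TPM, against 5.39, 5.12 and 3.61 TPM with DMSO. Under siNC AIM2 differed by -0.09 (adjusted p = 0.828), and its interaction was 1.37 (SE 0.23, adjusted p = 0.00737). IFI16 and AIM2 were the 2 of 14 whose interaction was called above 0, beside 6.0% of all genes, and the list's median interaction was 0.03.

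Among nucleases and related enzymes, which include TREX1 and SAMHD1, 16 of 20 were tested and calls went both ways. With poly(dA:dT) SAMHD1 and TREX1 were the 2 that rose by knockdown and 3 fell, with a median of -0.07, beside 8.71% and 12.6% of all genes. The 3 were APOBEC3B, a cytidine deaminase of DNA (-1.17, SE 0.11), and RNASEH2A (-0.88) and RNASEH1 (-0.75), which degrade RNA in RNA-DNA hybrids. Without poly(dA:dT) 3 rose and 4 fell, beside 16.6% and 14.8% of all genes. After the correction 2 rose and 3 fell there, beside 13.1% and 14.4%. PLD3, an exonuclease of single-stranded DNA in lysosomes, had 205.9, 225.1 and 216.8 TPM in siQ61K and 73.1, 86.5 and 92.1 TPM in siNC libraries, a difference of 1.36 (SE 0.17, adjusted p = 0.000133). RNASEH2B fell by 0.87 and APOBEC3B by 0.58. Poly(dA:dT) under siQ61K gave 4 higher and 4 lower, beside 6.92% and 18.3% of all genes, and 2 higher and 3 lower after the correction, beside 5.37% and 3.3%. PLD3 was among the lower (-0.89), with 164.7, 99.8 and 94.1 TPM against 205.9, 225.1 and 216.8 TPM with DMSO.

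Of 14 regulators of cGAS tested, 3 were lower by knockdown with poly(dA:dT) and 3 with DMSO, beside 12.6% and 14.8% of all genes. AURKB, a mitotic kinase that restrains cGAS on chromosomes, had 61.3, 59.4 and 55.3 TPM in siQ61K and 136.2, 137.1 and 131.8 TPM in siNC libraries with poly(dA:dT), a difference of -1.19 (SE 0.10, adjusted p = 4.73e-06), and -0.60 with DMSO. BANF1, which coats DNA and keeps cGAS from it, differed by -0.57 with poly(dA:dT), and KAT5, an acetyltransferase, by -0.65. G3BP1 (-0.42) and USP14 (-0.51) were lower with DMSO, and both calls were lost with the correction, at -0.16 and -0.20.

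Regulators and trafficking partners of STING were the largest list, with 32 of 35 tested. Poly(dA:dT) under siQ61K went with 20 lower and 1 higher, beside 18.3% and 6.92% of all genes, at a median of -0.54 beside -0.145 over all genes. After the correction 5 were lower and 2 higher, beside 3.3% and 5.37%, with a median of -0.16. The interaction was called below 0 for 11 and above 0 for 1, beside 12.1% and 6.0% of all genes, and for 0 and 1 after the correction. The higher gene was USP18, a negative regulator of interferon receptor signalling and a STING partner, with 30.2, 21.3 and 22.3 TPM in siQ61K libraries with poly(dA:dT), against 3.08, 2.02 and 2.58 TPM with DMSO. Its difference was 2.84 (SE 0.25, adjusted p = 2.45e-05), and its interaction was 2.10. EIF3F, the lowest of the list at -2.31, was uneven, at 267.9, 44.7 and 89.1 TPM against 500.6, 530.7 and 503.4 TPM with DMSO, and its interaction was -2.28 (adjusted p = 0.0321). With 1 library left out in turn that call held without siQ61K poly(dA:dT) replicate 1, siNC poly(dA:dT) replicate 1 or siNC DMSO replicate 3 and was lost without any other (adjusted p 0.0519 to 0.0846).

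By knockdown, 7 of the 32 STING regulators rose and 3 fell with DMSO, and 2 rose and 6 fell with poly(dA:dT). Of all genes 16.6% rose and 14.8% fell with DMSO, and 8.71% and 12.6% with poly(dA:dT), shares near those of the list. After the correction 5 rose and 4 fell with DMSO, beside 13.1% and 14.4% of all genes. With poly(dA:dT) 4 rose and 4 fell after it, beside 13.7% and 13.2%. INSIG1, a sterol sensor that helps ubiquitinate STING, was lower with both, at 81.4, 70.3 and 85.6 TPM in siQ61K and 176.3, 183.7 and 183.1 TPM in siNC libraries with poly(dA:dT). The log2 differences were -1.19 with poly(dA:dT) and -1.27 with DMSO (SE 0.11 each). NPC1, a lysosomal cholesterol transporter, differed by -1.54 and -1.07. SQSTM1, the autophagy receptor p62, was higher at 0.78 and 1.18, and USP18 rose by 2.45 with poly(dA:dT). TOLLIP (1.25) and ZDHHC1 (1.18), a palmitoyltransferase, were higher with DMSO, where the correction gave 0.91 and 0.67, both called.

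Among partners of TBK1, IKK-epsilon and IRF3, all 20 were tested. With DMSO 7 rose and 3 fell by knockdown, including IRF3, IKBKE and TBK1, and with poly(dA:dT) 2 rose and 2 fell. The shares of all genes were 16.6% and 14.8% with DMSO and 8.71% and 12.6% with poly(dA:dT). After the correction 4 rose and 2 fell with DMSO, beside 13.1% and 14.4% of all genes. The calls of IKBKE (adjusted p = 0.396) and TBK1 (0.163) were lost there. With poly(dA:dT) 3 rose and 1 fell after the correction, beside 13.7% and 13.2%. OPTN, an adaptor that TBK1 phosphorylates, had 62.7, 62.6 and 64.4 TPM in siQ61K and 24.9, 22.0 and 28.6 TPM in siNC libraries with poly(dA:dT), a difference of 1.30 (SE 0.12, adjusted p = 1.11e-05), and 0.87 with DMSO. TRIM21, a ubiquitin ligase that acts on IRF3, had 55.4, 56.5 and 52.3 TPM in siQ61K and 39.2, 30.8 and 30.1 TPM in siNC libraries with poly(dA:dT), a difference of 0.71. Poly(dA:dT) raised TRIM21 by 1.49 under siQ61K, with an interaction of 0.85. The TRIM21 interaction was 0.75 (adjusted p = 0.0508) without siNC DMSO replicate 1.

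Genes that IRF3 switches on directly were counted beside IRF3 itself. Of 11 listed, 9 were tested, and IFNB1 and IFNL1 did not pass the filter. CXCL10 passed it only through the siQ61K poly(dA:dT) libraries, where it was high. Its own rise therefore adds no support to the counts below that include it. With poly(dA:dT), 7 of the 9 rose by knockdown, at a median of 2.03, beside 8.71% of all genes. With DMSO 3 rose, at a median of 0.53, beside 16.6% of all genes. Poly(dA:dT) raised 8 of 9 under siQ61K (median 2.58) and 2 under siNC, IFIT1 (2.46) and IFIT3 (1.22), with a median of 1.02, beside 6.92% and 0.0747% of all genes. The interaction was called above 0 for 6 of the 9, beside 6.0% of all genes. After the correction 7 rose by knockdown with poly(dA:dT) and 5 with DMSO, beside 13.7% and 13.1% of all genes. Poly(dA:dT) then raised 8 under siQ61K and 3 under siNC, with IFIT2 added (1.22, adjusted p = 0.0197), beside 5.37% and 0.13%. The corrected interaction was called above 0 for 5, beside 1.39%, with CXCL10 lost (0.75, adjusted p = 0.275). The IFIT3 call under siNC was lost without siNC poly(dA:dT) replicate 1 or 3 or any siNC DMSO replicate, at 1.10 to 1.29 (adjusted p 0.0546 to 0.114). Some of these genes also respond to interferon through other factors. IFIT3, an antiviral RNA-binding partner, had 119.1, 93.7 and 86.8 TPM with siQ61K and poly(dA:dT), against 9.96, 6.34 and 9.07 TPM with siNC and poly(dA:dT), a difference of 3.42 (SE 0.18, adjusted p = 7.27e-08). RSAD2, which encodes the antiviral enzyme viperin, differed by 2.98, IFIT2 by 2.63 and OASL by 2.03. The chemokines CXCL10 (1.77) and CCL5 (1.33) rose with them and stayed low, at 4.18 to 5.22 and 4.59 to 5.97 TPM in siQ61K poly(dA:dT) libraries. CXCL10 was listed at 0 in all siNC DMSO libraries.

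The interferon genes themselves were at the edge of detection. IFNB1 was above 0 only in siQ61K poly(dA:dT) replicate 1 (0.226 TPM) and siNC poly(dA:dT) replicate 3 (0.108 TPM), and IFNL1 only in siQ61K poly(dA:dT) replicate 2 (0.356 TPM). ISG15 did not exceed 4.90 TPM, and its differences were not called, with 1.18 under siQ61K for poly(dA:dT) (adjusted p = 0.0673). ISG20, an exonuclease, differed by -0.04 between the siRNAs with poly(dA:dT). Poly(dA:dT) raised it under siQ61K by 0.52 (adjusted p = 0.0459), and by 0.93 after the correction (adjusted p = 0.0104). With 1 library left out in turn the call as deposited held without siQ61K poly(dA:dT) replicate 3 or siNC DMSO replicate 3. It was lost without any other (0.29 to 0.62, adjusted p 0.0532 to 0.154).

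**Figure D4:**
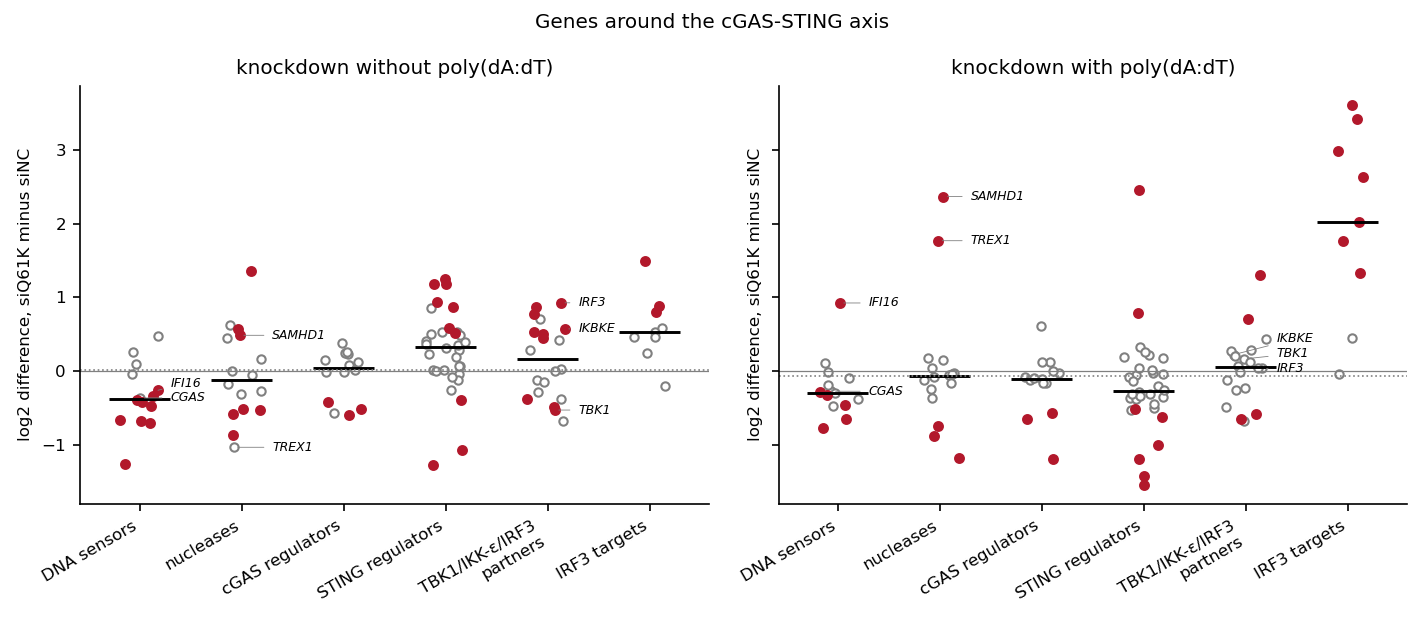
Log2 differences between siQ61K and siNC for every tested gene of the 6 lists, without poly(dA:dT) (left) and with it (right); filled points are called, black lines are list medians and the dotted line is the median of all tested genes. The IRF3 target genes had a median of 2.03 with poly(dA:dT) and 0.53 without, and SAMHD1, TREX1 and IFI16 lay above the other genes of their lists with poly(dA:dT).

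The genes closest in pattern to each of the 8 were taken by Pearson correlation of log2(TPM + 1) over the 12 libraries, among genes with a mean of at least 5 TPM. For IFI16 they were DDX58 (r = 0.995), TDRD7 (0.982) and OAS3 (0.979), and for SAMHD1 HERC6 (0.988), GBP1 (0.983) and LGALS9 (0.982). For STING1 they were STX1A (0.985), ENO2 (0.985) and ZCCHC24 (0.984). TBK1 was closest to NBN (0.97), CAPZA1 (0.968) and NFE2L2 (0.959), and IRF3 to SYMPK (0.951), QTRT1 (0.943) and SLC66A1 (0.933). IKBKE was closest to NUP153-AS1 (0.941), ATP13A1 (0.902) and ZNF346 (0.894), TREX1 to EAPP (0.931), GAS5 (0.891) and MRPL32 (0.889), and CGAS to EXOC6 (0.899), TSG101 (0.881) and ORC3 (0.875). The libraries share their groups and the GC trend, so these values describe likeness over 4 groups and no more.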

How the data were processed

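Per the labels' protocols, total RNA of HT1080 cells (1 µg a sample) was sequenced on an Illumina NovaSeq after library preparation with NEBNext Ultra RNA reagents. The authors deposited 1 table of TPM, a length-scaled relative abundance, for 12 libraries. Per the submitters' processing notes, Salmon 0.8.0 and hg19 were used, with the annotation, strand setting and gene summing not given in the sources used here. Depth is unknown, since TPM does not keep it. Column sums were 964007 to 967331. Of 56227 entries, 984 that share 58 symbols were left out.

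Sample titles gave the siRNA, the poly(dA:dT) where added, and the replicate numbers. They do not name DMSO, which here labels the libraries without poly(dA:dT). Separate cultures are not stated, so the spread behind each p-value is that between these libraries and may be technical. The titles do not state that the numbers pair libraries. Residuals of same-numbered libraries correlated at -0.26 to 0.233 and those of different numbers at -0.199 to 0.279. With 3 libraries a group these values cannot show whether they were paired, so a replicate block was fitted as an alternative.

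The deposited TPM of the 14722 genes reaching 1 TPM in 3 or more libraries were put on a log2(TPM + 1) scale, on which fold changes of low genes come out too small. All 4 groups entered 1 model in limma 3.58.1 under R 4.3.3, using a variance trend and a Benjamini-Hochberg threshold of 0.05. The script was tested on simulated data. GC content and length of the longest GENCODE 29 transcript were known for 99.65% of tested genes and were corrected by lowess (span 0.3) per library. Other alternatives were pseudocounts, filters, scaling, weights, trends, a replicate block, a fit to the groups compared and leaving out libraries. TREX1 with ATRIP summed was added after seeing the data.

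The 8 genes and the 6 lists were chosen with earlier results of these data known. Genes named are the 8, NRAS, all IRF3 targets, up to 4 called genes of each list and comparison by size, the 3 genes most like each of the 8, and ATRIP and BCL2L12, which overlap TREX1 and IRF3. A called gene of these lists is not reported here.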

Additional observations from a re-analysis of the deposited data

Results flagged for a closer look

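Each gene below had an interaction called by limma: its log2 difference between poly(dA:dT) and DMSO under siQ61K minus that under siNC was different from 0. The values were 1.18 for IFI16, 2.80 for TREX1, 1.88 for SAMHD1 and -0.89 for IRF3 among the 8 genes. Among IRF3 target genes they were 2.11 for IFIT1, 1.74 for IFIT2, 2.62 for IFIT3, 2.41 for RSAD2, 1.57 for OASL and 1.30 for CXCL10. USP18, of the STING regulators, stood at 2.10, EIF3F at -2.28, SNX8 at -1.44 and SLC19A1 at -1.10. Of the sensors and nucleases AIM2 had 1.37, PLD3 -1.31, RNASEH2A -0.82, RNASEH1 -0.75 and RNASEH2B 0.75. For the regulators of cGAS the values were -1.03 in KAT5 and -0.59 in AURKB, and for the TBK1 and IRF3 partners -1.09 in TICAM1, -0.68 in RBCK1 and 0.85 in TRIM21. After the GC and length correction the calls of TREX1, IRF3, CXCL10, EIF3F, SNX8, SLC19A1, PLD3, RNASEH2A, RNASEH1, RNASEH2B, KAT5, AURKB, TICAM1 and RBCK1 were lost, and the others held. With 1 library left out in turn, those of RNASEH1 and RNASEH2A were lost 10 times, those of EIF3F, RBCK1 and RNASEH2B 9 times, that of TREX1 7 times, that of CXCL10 6 times, that of IRF3 4 times and that of TRIM21 1 time, at adjusted p of 0.0508 to 0.12.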

How the results depend on the processing

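The depth of the libraries is unknown and each group has 3, which limits what is called. Counts of called genes, of which 4632, 3144, 18, 3712 and 2662 were found for the knockdown without poly(dA:dT), that with it, poly(dA:dT) under siNC, poly(dA:dT) under siQ61K and the interaction, ranged with 1 library left out over 3040 to 4983, 2127 to 3770, 7 to 36, 1633 to 4622 and 976 to 3877. For the 8 genes the ranges were 1 to 6, 3 to 4, 0 to 0, 3 to 5 and 2 to 6. Leaving out a library turned the sign of CGAS in the interaction (-0.13 to 0.23), TREX1 and IKBKE under siNC (-0.86 to 0.45 and -0.02 to 0.14) and IRF3 in the knockdown with poly(dA:dT) (-0.07 to 0.21), none of them called. For the knockdown without poly(dA:dT), the 6 called of the 8 became 2 with no filter and 3 with only the groups compared, with a replicate block, and with the GC and length correction, alone or with that block. Of all genes, 4436 of 14722 were called there with the block and 3850 of 14671 with correction and block. With the replicate block the TREX1 difference in the knockdown with poly(dA:dT) had an adjusted p of 0.0686 and its interaction 0.0536, and neither was called. Sample weights called 7588 genes. Under siNC, 332 genes were called with sample weights, 30 with the correction and 28 with correction and block, and 1 of the 8 under both, against 0. Under siQ61K the genes called were 2328 with no filter, 2207 with only the groups compared, 1272 with the correction, 1071 with correction and block, and 144 without the pair of libraries, and 2, 3, 3 and 2 of the 8 with no filter, the correction, correction and block, and without the pair. For the interaction they were 1026 with no filter, 5580 with sample weights, 302 and 212 with the correction without and with the block and 494 without the pair, and 2 of the 8 with no filter, with the correction, with correction and block, and without the pair. The correction, with or without the block, turned CGAS (-0.10), IKBKE (0.25) and RBCK1 (0.11) in the interaction, IFI16 in the knockdown without poly(dA:dT) (0.05), IKBKE under siNC (-0.03) and siQ61K (0.21) and NRAS under siNC (0.06). The higher share of calls in the knockdown with poly(dA:dT) was 40.78%, and 51.31% and 51.17% with median-of-ratios scaling and quantile normalization. For the interaction these shares were 33.17%, 47.46% and 46.53%, and under siQ61K 27.45%, 52.57% and 47.74%. No interaction could be fitted to only the groups compared. The cause of these changes was not tested.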
